A study of Mus musculus with 12 samples.

Results

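The genes described here are 10 components and outputs of the circadian clock, namely Clock, Npas2, Per1, Per2, Per3, Nr1d1, Nr1d2, Ciart, Dbp and Tef. They were chosen by name, as every probe set annotated with exactly 1 of these symbols. That gave 25 probe sets for 10 genes, among 45101 probe sets and 18193 singly annotated genes on the array. A filter on dim probe sets, which asked that the third highest of the 12 values exceed the median of all values (log2 3.35), kept 19 of the 25, at least 1 for each gene. Signals around or below that level lie near background. Each gene is represented by its brightest probe set unless another is named.

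Hearts came from CD1 mice, an outbred stock, that expressed DN-MCU, a dominant-negative form of the mitochondrial calcium uniporter pore MCU, or from WT littermates. Whole excised hearts were taken at 42 days (adults, all labelled male) and at 1 day (neonates, sex not given), giving 4 groups by genotype and age with 3 arrays each. The labels record no treatment for any group. The sources used here do not give the promoter that drives DN-MCU, the hour of collection or the lighting schedule. Values are log2 signals.

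As background, the clock is a transcriptional feedback loop present in nearly every cell, including cardiomyocytes. CLOCK or its relative NPAS2 pairs with BMAL1, the product of Arntl, and binds E-boxes to activate the Per, Cry, Nr1d, Ciart, Dbp and Tef genes. PER and CRY proteins and the CIART protein repress that activation. REV-ERB alpha and beta, the products of Nr1d1 and Nr1d2, repress Arntl, Npas2 and Nfil3 by competing with ROR activators, and DBP, TEF and HLF activate genes through D-boxes. In adult mouse heart the Per, Nr1d, Ciart, Dbp and Tef transcripts therefore peak around the later part of the light phase, while Arntl, Npas2 and Clock peak in the opposite phase.

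The promoter sequences are shown for the E-box and D-box letters through which the loop is known to act. RefSeq promoter sequences (GRCm38.p6) were found for 9 of the 10 genes, 13 start sites in all. The 250 bases before each start were searched on both strands for the E-box CACGTG, the D-boxes TTATGTAA and TTACGTAA, and the ROR/REV-ERB element (a GGTCA half-site with its A and T flank). An E-box stood before 4 of the 13 starts, belonging to Ciart, Per1 and Tef, against 6.02% of 32851 promoters in the table. A D-box stood before 1 start, that of Per3, against 0.931% of promoters. No start of these genes had the ROR/REV-ERB element, which 2.04% of promoters had. Matches are descriptions of the letters in this window only. The promoters below belong to the 4 genes with a motif, all lower in neonates, and to Npas2, which was higher. Capitals mark the motifs found. Dbp and Nr1d2, also lower in neonates, had none of the motifs in this window, and Per2 had no sequence. A relation of the motifs to the age differences was not tested.
Ciart promoter (chr3:95882229-95882478, minus strand): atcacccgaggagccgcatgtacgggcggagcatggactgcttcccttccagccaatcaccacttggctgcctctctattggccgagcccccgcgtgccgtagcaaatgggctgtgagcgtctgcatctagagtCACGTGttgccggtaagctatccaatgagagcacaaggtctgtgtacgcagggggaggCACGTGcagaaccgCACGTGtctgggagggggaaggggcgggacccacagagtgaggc
Per1 promoter (chr11:69098699-69098948, plus strand): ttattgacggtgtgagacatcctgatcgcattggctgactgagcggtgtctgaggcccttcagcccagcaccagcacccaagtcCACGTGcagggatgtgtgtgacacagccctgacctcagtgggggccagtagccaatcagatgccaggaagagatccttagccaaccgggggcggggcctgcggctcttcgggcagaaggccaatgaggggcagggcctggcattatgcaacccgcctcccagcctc
Tef promoter (chr15:81802423-81802672, plus strand): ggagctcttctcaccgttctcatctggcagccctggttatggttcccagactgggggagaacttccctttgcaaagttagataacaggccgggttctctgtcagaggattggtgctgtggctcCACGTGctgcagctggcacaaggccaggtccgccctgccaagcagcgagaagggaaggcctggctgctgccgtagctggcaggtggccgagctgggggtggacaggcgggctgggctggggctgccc
Per3 promoter (chr4:151044666-151044915, minus strand): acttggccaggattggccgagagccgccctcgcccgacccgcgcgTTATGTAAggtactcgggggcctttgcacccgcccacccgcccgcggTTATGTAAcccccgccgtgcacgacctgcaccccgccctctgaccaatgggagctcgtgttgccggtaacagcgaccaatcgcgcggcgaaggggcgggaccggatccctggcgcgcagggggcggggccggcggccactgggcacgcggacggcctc
Npas2 promoter (chr1:39194022-39194271, plus strand): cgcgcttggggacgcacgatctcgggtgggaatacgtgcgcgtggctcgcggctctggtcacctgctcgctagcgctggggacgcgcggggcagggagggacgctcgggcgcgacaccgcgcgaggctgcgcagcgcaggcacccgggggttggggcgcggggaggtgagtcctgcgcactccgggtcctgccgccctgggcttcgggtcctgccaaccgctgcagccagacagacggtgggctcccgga
Ciart carried 3 E-boxes, Per1 and Tef 1 each at the starts shown, Per3 carried 2 D-boxes, and the Npas2 window held none of the motifs.

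The labels were checked on Mcu itself. Of its 2 probe sets, the dimmer lay between 2.45 and 4.55 in the 6 WT arrays and between 8.44 and 10.41 in the 6 DN-MCU arrays, while the other lay between 7.39 and 8.18 on all arrays. Cardiomyocyte markers (6 of 6 measured) averaged 15.37 to 15.49 in adults and 15.00 to 15.16 in neonates. Adult arrays were more scattered than neonatal ones: mean correlations with the rest of the own group ran from 0.931 to 0.981 in adults and from 0.991 to 0.993 in neonates. DN-MCU adult 3 (0.931) and WT adult 1 (0.970, the lowest of its group) stood apart. In DN-MCU adult 3 the brown adipocyte markers Ucp1 and Cidea averaged 6.74, against 8.67 to 11.12 in the other adults. In WT adult 1 the 5 epicardial and mesothelial markers averaged 7.18, against 5.04 to 5.60 in the other adults.

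The comparison of WT neonates with WT adults asked how clock genes differ between the newborn and the mature heart. Per1, Per2, Per3, Nr1d2, Ciart, Dbp and Tef were lower at 1 day, Npas2 was higher, and Clock and Nr1d1 did not pass. Of the 10 genes 7 fell and 1 rose at an adjusted p under 0.05 (limma), where 20.6% of all 24176 probe sets tested fell and 24.4% rose. The median difference of the 10 genes was -1.91, against 0.07 over all probe sets. In a bulk sample, fewer cells of a type and less RNA per cell cannot be told apart, and any hour of collection that differed between the ages cannot be told apart from age.

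Dbp, a transcription factor and direct E-box output with one of the strongest daily rhythms known, lay at 12.45, 12.14 and 12.38 in WT adults and at 8.87, 8.44 and 8.44 in WT neonates. The DN-MCU hearts lay at 11.93 to 12.48 in adults and at 9.15, 8.99 and 8.28 in neonates. Every adult array was thus above every neonatal array. In WT hearts Dbp fell by 3.74 on the log2 scale (SE 0.24, limma adjusted p = 1.0e-06), or 13.4-fold, and its other kept probe set fell by 4.07 (SE 0.26).

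Tef encodes a related factor. WT adults lay at 10.69, 10.73 and 10.73 and WT neonates at 7.27, 7.38 and 7.09. DN-MCU adults lay at 10.23, 10.47 and 10.40 and DN-MCU neonates at 7.64, 7.59 and 7.60. The age difference in WT hearts was -3.47 (SE 0.12, limma adjusted p = 2.31e-08), or 11.1-fold lower in neonates. The ages were well apart, and within each age the DN-MCU arrays did not overlap the WT arrays, to which the genotype comparison returns.

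Ciart, the CLOCK-BMAL1 repressor also known as Chrono, had the widest age difference of the 10 genes. WT adults lay at 8.49, 8.23 and 8.40 and DN-MCU adults at 7.58, 7.77 and 8.46. WT neonates lay at 2.99, 3.16 and 3.84 and DN-MCU neonates at 3.26, 4.07 and 3.85. All adult arrays were bright and the neonatal arrays lay around the background level. The difference was -5.04 (SE 0.30, limma adjusted p = 5.04e-07). Because the neonatal signal lies near background its size is uncertain, and no fold is given.

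**Figure D1:**
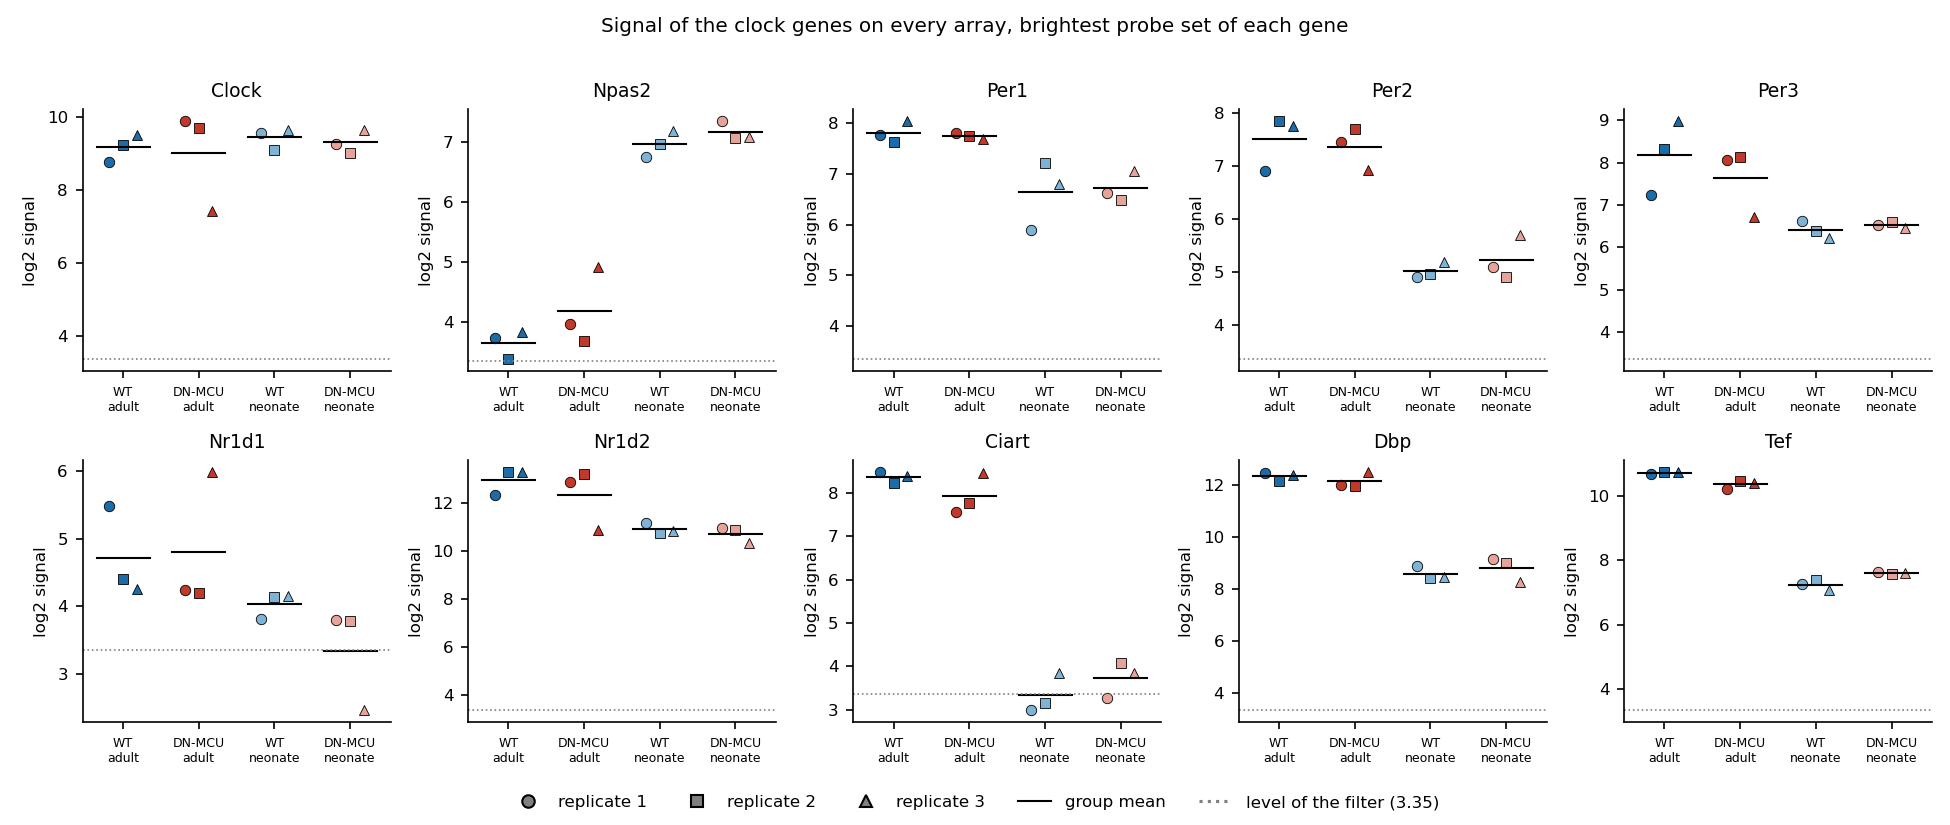
Log2 signal (vertical axes, a separate scale for each gene) of the 10 clock genes on every array, with the 4 groups on the horizontal axes. Points are arrays, bars are group means and the dotted line is the filter level of 3.35. Dbp, Tef, Ciart, Per1, Per2, Per3 and Nr1d1 are lower on every neonatal array than on every adult array, Npas2 is higher, and Clock and Nr1d2 overlap.

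The 3 Period genes, which encode the repressors of the loop, fell by different amounts. Per2 lay at 6.91, 7.85 and 7.75 in WT adults and at 4.90, 4.96 and 5.18 in WT neonates, a fall of 2.49 on the log2 scale (SE 0.30, limma adjusted p = 7.24e-05) or 5.61-fold. Its other kept probe set fell by 3.48 (SE 0.22), to neonatal levels of 3.01 to 3.27 near background. Per1, which also responds quickly to hormones and stress signals, lay at 7.76, 7.63 and 8.03 in WT adults and at 5.89, 7.22 and 6.79 in WT neonates. It fell by 1.17 (SE 0.29, limma adjusted p = 0.00757) or 2.26-fold, and WT neonate 1 was its lowest array. Per3 lay at 7.23, 8.33 and 8.98 in WT adults and at 6.62, 6.38 and 6.22 in WT neonates, a fall of 1.77 (SE 0.44, limma adjusted p = 0.00751) or 3.42-fold. Its 3 other kept probe sets also fell. Probe sets 1458176_at and 1441445_at lay at 2.24 to 2.51 in WT neonates, below the filter level, so the sizes of their differences cannot be read.

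The nuclear receptor genes behaved less evenly. Nr1d2 lay at 12.31, 13.28 and 13.28 in WT adults and at 11.16, 10.73 and 10.82 in WT neonates, a fall of 2.05 on the log2 scale (SE 0.52, limma adjusted p = 0.00861) or 4.15-fold. WT adults and WT neonates did not overlap, but DN-MCU adult 3, at 10.86, lay within the neonatal range of 10.32 to 11.16. Nr1d1 was dim and scattered, at 5.48, 4.41 and 4.26 in WT adults and 3.81, 4.14 and 4.16 in WT neonates. Its difference of -0.68 (SE 0.53, 95% interval -1.84 to 0.48, limma adjusted p = 0.322) did not pass. WT neonates were nonetheless below WT adults without overlap, as were 29.2% of all probe sets tested. Without WT adult 1 it was at -0.29. Nr1d1 overlaps the 3′ end of Thra on the genome, and the target of its single probe set is not known here. The brightest Thra probe set lay between 8.18 and 9.18 on all arrays.

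On the activator side the partners differed. Npas2 lay at 3.73, 3.38 and 3.82 in WT adults and at 3.96, 3.68 and 4.91 in DN-MCU adults. WT neonates lay at 6.75, 6.96 and 7.18 and DN-MCU neonates at 7.34, 7.06 and 7.09. Every neonatal array was above every adult array, and in WT hearts Npas2 rose by 3.32 (SE 0.28, limma adjusted p = 6.33e-06). The adult levels are close to background, so the size of this difference is uncertain. Clock by its brightest probe set lay at 8.77, 9.23 and 9.52 in WT adults and 9.57, 9.11 and 9.66 in WT neonates. Its difference of 0.27 (SE 0.54, 95% interval -0.93 to 1.46) did not pass (limma adjusted p = 0.72) and was at 0.07 without WT adult 1. That SE pools the scatter of all 4 groups. Without DN-MCU adult 3, an array outside this comparison, the SE was 0.23 and Clock still did not pass (limma adjusted p = 0.348). The Clock probe sets disagreed. Probe sets 1418660_at and 1435775_at were higher in neonates by 1.73 (SE 0.53, limma adjusted p = 0.0218) and 1.87 (SE 0.45, limma adjusted p = 0.00644), the dim 1439314_at was at -0.17 (SE 0.15), and the part of the transcript that each reads is not known here. The call of 1418660_at was lost without WT adult 1 (adjusted p = 0.0733), WT adult 2 (0.0617), WT neonate 2 (0.0582) or WT neonate 3 (0.0696), without the filter (0.0573) and with the replicate block within each age (0.0682). Without DN-MCU adult 3 it was kept (limma adjusted p = 0.000391).

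Over both genotypes, all 6 neonatal arrays were below all 6 adult arrays for 7 of the 10 genes (Per1, Per2, Per3, Dbp, Tef, Nr1d1 and Ciart), where 18.7% of all probe sets tested were. For Npas2 they were above, as for 24.2% of probe sets. Clock and Nr1d2 overlapped. The ages were only just apart for Nr1d1 (lowest adult 4.20, highest neonate 4.16) and Per3 (6.72 and 6.62). The count of 8 genes called was also 8 when any single array was left out, and 8 without both WT adult 1 and DN-MCU adult 3. Signs of other cell types and a sign of RNA state moved with age as well. Summarised as means over each list, neutrophil markers (2 of 2 measured) ran from 7.83 to 9.43 in neonates and 3.31 to 5.22 in adults, macrophage markers (3 of 3) from 6.11 to 6.74 and 8.60 to 9.56, and adipocyte markers (4 of 6) from 5.30 to 5.40 and 6.75 to 9.73. The difference between the 3′ and 5′ control probe sets of beta-actin was 1.03 to 1.56 in neonates and 0.77 to 0.90 in adults. The same difference for Gapdh overlapped between the ages, at -0.53 to -0.18 in neonates and -0.57 to -0.38 in adults. The part of these signs in the age differences was not tested.

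**Figure D2:**
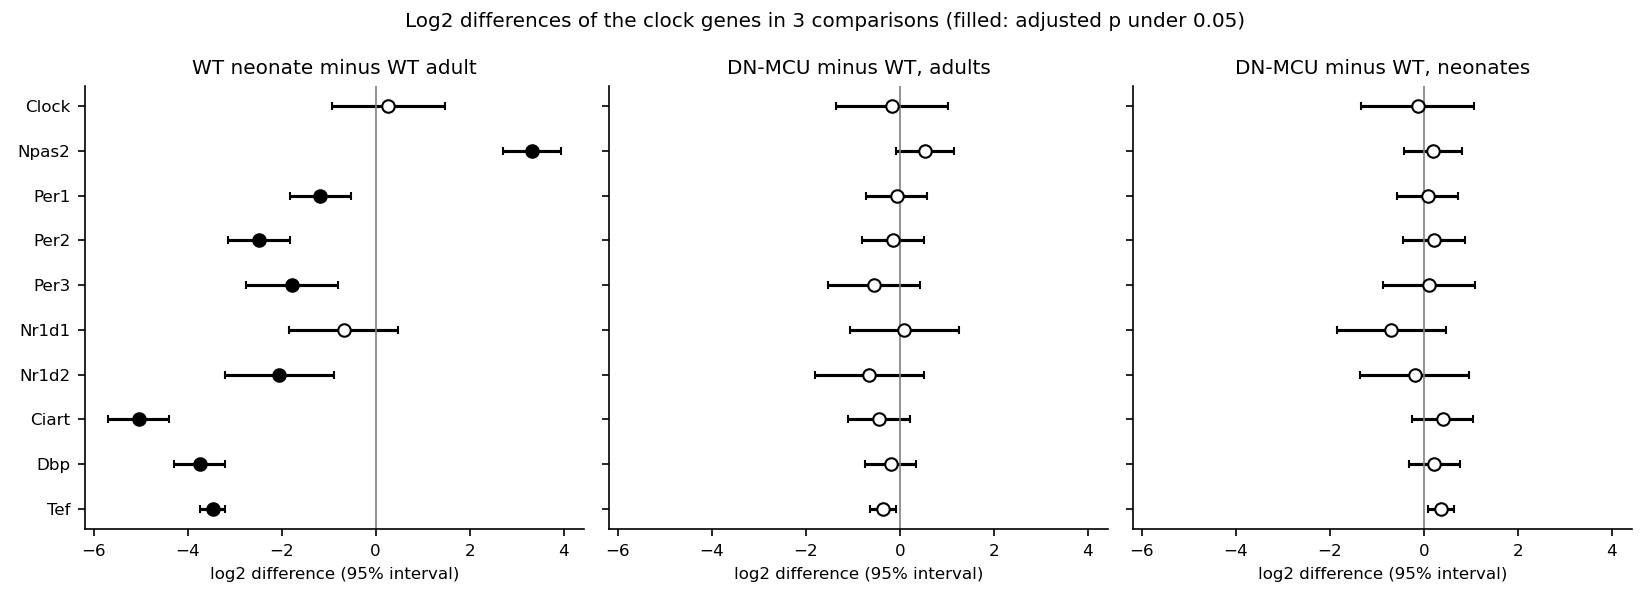
Log2 difference (horizontal axes) of each of the 10 clock genes (rows) for WT neonates against WT adults and for DN-MCU against WT hearts in adults and in neonates. Circles are estimates from the limma fit, bars are 95% intervals, and filled circles passed at an adjusted p under 0.05. 8 genes are filled for age and none for genotype at either age.

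The other genes of the loop were read from a list of 21, of which 19 were on the array and 16 kept. In WT neonates 5 of the 16 rose, 4 fell and 7 did not pass, with a median of 0.03, where 24.4% of all probe sets rose and 20.6% fell. These shares are near those of all probe sets. Arntl, which encodes BMAL1, lay at 4.60, 3.31 and 2.91 in WT adults and 5.93, 6.66 and 6.29 in WT neonates, a rise of 2.68 (SE 0.45, limma adjusted p = 0.000719). The adult arrays span the background level and the neonatal arrays are clear of it, so the size is uncertain. Nfil3, a repressor that competes with DBP and TEF for D-boxes, lay at 6.31, 5.72 and 6.45 in WT adults and 8.38, 8.51 and 8.30 in WT neonates and rose by 2.24 (SE 0.36), or 4.72-fold. Arntl and Nfil3 were higher on every neonatal array than on every adult array.

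Cry2, a repressor partner of the PER proteins, lay at 8.02, 8.10 and 8.24 in WT adults and at 6.58, 6.36 and 6.52 in WT neonates, and fell by 1.63 (SE 0.14) or 3.10-fold. Its relative Cry1 did not pass (0.20, adjusted p = 0.569 in limma), with overlapping ages at 6.87 to 7.66 in adults and 7.23 to 8.11 in neonates. Rora, an activator of Arntl, fell by 1.66 (SE 0.46, without WT adult 2 adjusted p = 0.0561) and Bhlhe40, a further E-box repressor, by 1.14 (SE 0.24). Hlf, the third PAR bZIP factor, fell by 0.66 (SE 0.21, limma adjusted p = 0.028), a call lost without any 1 of WT adults 1 to 3 or WT neonates 1 or 3 (adjusted p from 0.0532 to 0.097), with array medians subtracted (0.0622), and without WT adult 1 and DN-MCU adult 3 (0.0523). Its other kept probe set fell by 1.55. The kinase gene Csnk1e, Fbxw11 and Nono rose by 1.15, 0.57 and 1.24. Timeless, a relative of an insect clock gene, did not pass by its brightest probe set (-0.32). Its other kept probe set was higher in neonates, with adult arrays at 1.89 to 1.94, below the filter level, so no size is given. Bhlhe41 did not pass the filter.

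**Figure D3:**
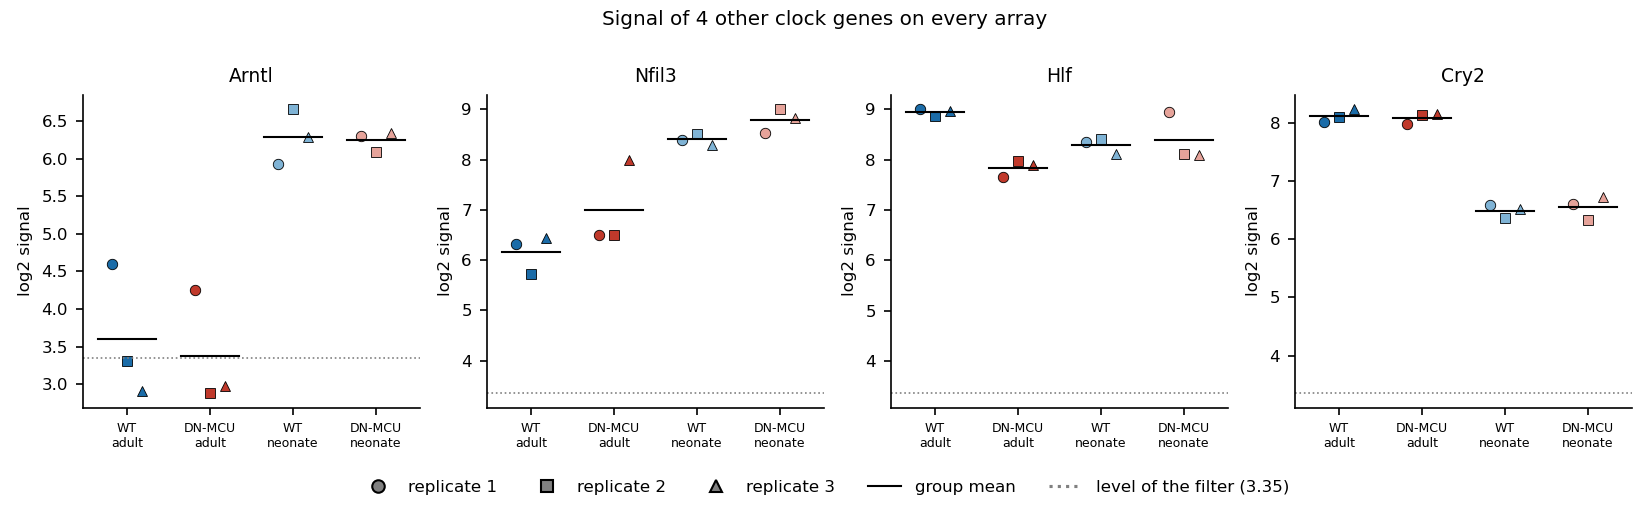
Log2 signal (vertical axes, a separate scale for each gene) of Arntl, Nfil3, Hlf and Cry2 on every array, with the 4 groups on the horizontal axes. Points are arrays, bars are group means and the dotted line is the filter level of 3.35. Arntl and Nfil3 are higher and Cry2 lower on every neonatal array, WT adult 1 and DN-MCU adult 1 have the highest adult Arntl, and Hlf is lower in DN-MCU adults than in WT adults.

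DN-MCU hearts were compared with WT hearts in adults, to ask whether clock genes differed when the uniporter was inhibited. By their brightest probe sets none of the 10 passed in limma, where 4.77% of all probe sets did, and 1 of the 10, Tef, had an unadjusted p under 0.05, where 18.2% of all probe sets did. The median difference of the 10 genes was -0.18, against -0.02 over all probe sets. Differences ran from -0.65 for Nr1d2 (SE 0.52, 95% interval -1.80 to 0.51) to 0.54 for Npas2 (SE 0.28, 95% interval -0.08 to 1.16). Clock (-0.17, 95% interval -1.37 to 1.02), Per1 (-0.06, -0.71 to 0.58), Per2 (-0.15, -0.80 to 0.51) and Dbp (-0.19, -0.73 to 0.35) had intervals that hold 0 and changes in either direction. Without DN-MCU adult 3, Npas2 was at 0.18, Clock at 0.62, Per1 at -0.035, Per2 at 0.07, Per3 at -0.08 (from -0.54), Dbp at -0.36, Nr1d2 at 0.08, Nr1d1 at -0.49 (from 0.09) and Ciart at -0.70 (from -0.44). Without WT adult 1, Clock was at -0.37, Per2 at -0.44, Per3 at -1.01, Dbp at -0.13, Nr1d1 at 0.48 and Nr1d2 at -0.97. None of these passed.

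Tef had the lowest unadjusted p of the 10 genes in adults (0.0166 in limma). It lay at 10.69, 10.73 and 10.73 in WT and 10.23, 10.47 and 10.40 in DN-MCU adults, with no overlap, and the difference was -0.35 (SE 0.12, 95% interval -0.63 to -0.08, limma adjusted p = 0.154), which did not pass. Of all probe sets, 8.46% were lower in DN-MCU adults without overlap. The dimmer Dbp probe set 1418174_at lay at 11.29, 10.82 and 11.12 in WT and 10.63, 10.49 and 10.64 in DN-MCU adults, again without overlap, at -0.49 (SE 0.26, limma adjusted p = 0.376). The groups overlapped for the brighter Dbp probe set (limma adjusted p = 0.76).

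Hlf fell. Its brightest probe set lay at 9.01, 8.87 and 8.97 in WT adults and at 7.66, 7.96 and 7.90 in DN-MCU adults. The groups did not overlap, and the fall was 1.11 on the log2 scale (SE 0.21, limma adjusted p = 0.0156) or 2.15-fold. The other kept probe set, at 6.68, 6.98 and 7.07 in WT and 5.43, 6.05 and 4.69 in DN-MCU adults, fell by 1.52 (SE 0.35, limma adjusted p = 0.0343). Of the 16 other clock genes kept, Hlf alone passed in adults, where 1.95% of all probe sets fell and 2.82% rose. Nfil3 was higher in DN-MCU adults without overlap, as were 8.70% of probe sets, at 6.51, 6.51 and 7.98 against 6.31, 5.72 and 6.45 (0.84, SE 0.36, limma adjusted p = 0.25). The call of the brightest Hlf probe set did not hold when the adult arrays were fitted alone (adjusted p = 0.0668), with array weights (0.0612), without WT adult 3 (0.0593) or without DN-MCU adult 1 (0.0523).

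Per3 gave the single call among the 19 kept probe sets of the 10 genes in adults, and its probe sets disagreed. Of all probe sets tested, 4.77% were called in adults, so 1 call among 19 is near that share. Lower without overlap were 8.46% of all probe sets. Probe set 1441445_at lay at 5.06, 6.10 and 6.07 in WT adults and at 3.17, 3.17 and 4.97 in DN-MCU adults. The groups did not overlap, but DN-MCU adult 3 lay just below WT adult 1. It fell by 1.98 on the log2 scale (SE 0.44, limma adjusted p = 0.0286). The lower values, in DN-MCU adults 1 and 2, are below the filter level of 3.35, so the size of this difference is uncertain. The brightest Per3 probe set, 1421087_at, was at -0.54 (SE 0.44), 1442243_at at -0.29 (SE 0.24) and 1458176_at at 0.05 (SE 0.36), all with overlapping groups. The call of 1441445_at was lost with the adults fitted alone (adjusted p = 0.298) without the filter (0.0669), and with neonatal numbers as a replicate block (0.0852), with a difference of -1.98 each time. It was also lost without WT adult 2 (0.115), WT adult 3 (0.116), DN-MCU adult 1 (0.091), DN-MCU adult 2 (0.0621), WT neonate 1 (0.051), WT neonate 3 (0.0511), DN-MCU neonate 1 (0.0509) or DN-MCU neonate 2 (0.0502). Without DN-MCU adult 3, which leaves only arrays below that level in its group, it was at -2.58, and without WT adult 1 at -2.32.

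**Figure D4:**
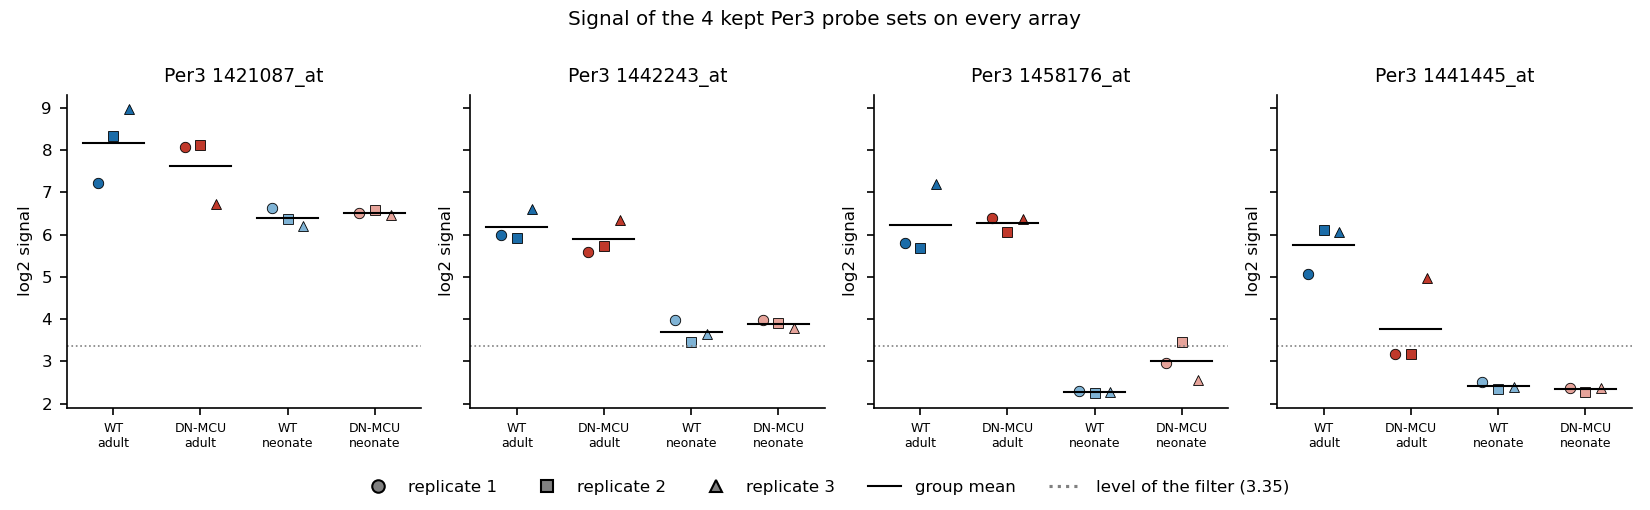
Log2 signal (shared vertical axis) of the 4 kept Per3 probe sets on every array, with the 4 groups on the horizontal axes. Points are arrays, bars are group means and the dotted line is the filter level of 3.35. Probe set 1441445_at is lower on the DN-MCU adult arrays, at 3.17, 3.17 and 4.97, than on the WT adult arrays, while the other probe sets overlap in adults, and all are lower in neonates.

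In neonates none of the 10 genes passed for genotype in limma, where 0.0165% of all probe sets did, and 1, again Tef, had an unadjusted p under 0.05, where 2.39% of all probe sets did. Their median difference was 0.16, against 0.01 over all probe sets. The error of this fit pools the neonatal arrays with the more scattered adult ones. The median SD over all probe sets was 0.13 in WT and 0.14 in DN-MCU neonates, against 0.23 and 0.40 in adults. Neonatal SEs can therefore be too wide, and the lack of calls in neonates does not show that differences are absent. Adult SEs can for the same reason be too narrow, and adult calls too many. With the neonatal arrays fitted alone, none of the 10 genes passed either. Tef lay at 7.27, 7.38 and 7.09 in WT and 7.64, 7.59 and 7.60 in DN-MCU neonates, without overlap, and was higher by 0.37 (SE 0.12, 95% interval 0.09 to 0.64, limma adjusted p = 1). Of all probe sets, 7.51% were higher in DN-MCU neonates without overlap and 5.13% were lower. Its dimmer probe set 1438033_at went the other way, at 3.76, 3.64 and 3.94 in WT and 2.86, 3.30 and 2.83 in DN-MCU neonates, all close to background. Nr1d1 was lower in DN-MCU neonates without overlap, at 3.80, 3.78 and 2.47 against 3.81, 4.14 and 4.16 (-0.69, SE 0.53, limma adjusted p = 1), and was at -0.25 without DN-MCU neonate 3.

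The DN-MCU effect at the 2 ages was then compared directly. None of the 10 genes passed in limma, where 0.786% of all probe sets did, and 1 had an unadjusted p under 0.05, where 9.22% of probe sets did. That gene was Tef. Its effect was lower in adults than in neonates by a difference of -0.72 (SE 0.18, limma adjusted p = 0.124). It passed without the filter (adjusted p = 0.0419), with array weights (0.0177) and without WT adult 1 and DN-MCU adult 3 together (0.0436), and it was at -0.14 when the kept Tef probe sets were averaged. Ciart was next, at -0.84 (SE 0.42, limma adjusted p = 0.609). Of the other genes named, Hlf was at -1.20 (limma adjusted p = 0.136).

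Genes downstream of the clock were read from a list of 13, of which 12 were on the array and kept. In WT neonates 8 of them fell, 3 rose and 1 did not pass, with a median of -1.09, where 20.6% of all probe sets fell and 24.4% rose. The largest was the NAD biosynthesis enzyme gene Nampt (-3.44), followed by Dgat2 (-2.95), the last enzyme of triglyceride synthesis, and Kcnip2 (-2.64), a subunit of the transient outward potassium channel, all lower in neonates. Klf15, a regulator of cardiac metabolism, was at -1.99, and the ubiquitin protease Usp2 at -1.26. Klf10 (1.75), Tfrc (0.97) and the cell cycle kinase Wee1 (0.82) rose. In DN-MCU adults 1 of the 12 passed, where 4.77% of all probe sets did. Dgat2 lay at 10.98 to 11.32 in WT and at 9.77, 10.28 and 10.43 in DN-MCU adults and fell by 0.94 (SE 0.18, limma adjusted p = 0.0124), a call lost with the adults fitted alone (adjusted p = 0.218) or without WT adult 3 (0.0583). None of the 12 passed in DN-MCU neonates in limma, and 0 had an unadjusted p under 0.05.

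Glucocorticoids also follow the day and act on Per1, so genes that respond to them were read from a list of 10, all kept. In WT neonates 6 fell, 1 rose and 3 did not pass, where 20.6% of all probe sets fell and 24.4% rose. Zbtb16, a transcription factor, was at -3.47. In DN-MCU adults 2 rose and 8 did not pass, where 2.82% of all probe sets rose and 1.95% fell. Cdkn1a, the cell cycle inhibitor p21 and also a stress and p53 target, lay at 8.51, 7.39 and 7.28 in WT and at 10.60, 9.62 and 11.18 in DN-MCU adults (2.74, SE 0.43, limma adjusted p = 0.0048; with the adults alone 0.114). Mt2, a metallothionein, was 0.94 higher (SE 0.23, limma adjusted p = 0.0491) and lost the call with the adults alone (0.231), with neonatal numbers as a replicate block (0.113), with 4 other settings (0.0513 to 0.131), and without any 1 of WT adults 2 and 3, DN-MCU adults 1 and 3 or the 6 neonatal arrays (0.0506 to 0.182). Fkbp5 (0.09), Tsc22d3 (0.07) and Sgk1 (-0.02), which are classic glucocorticoid targets, did not pass. Zbtb16 was at -1.04 by its brightest probe set (SE 0.28, limma adjusted p = 0.0664) and fell by 1.39 by another (SE 0.29, limma adjusted p = 0.0226). In DN-MCU neonates none of the 10 passed in limma, and 1 had an unadjusted p under 0.05. Of the RNA-binding genes that follow body temperature, Cirbp was higher in WT neonates by 1.14 and did not pass for genotype (-0.46 in adults, limma adjusted p = 0.194), and Rbm3 is not analysed here.

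Whether arrays of the same group differ in the time of collection was addressed through the phase order of these genes. In a simplified order of 2 opposite phases, a shift of the clock was taken to move the Per, Nr1d, Ciart, Dbp and Tef genes 1 way. Arntl, Npas2, Nfil3 and Clock were taken to move the other way. Genes placed in the same phase need not peak at the same hour. A shift that raised some of them and lowered others would cancel in their mean. For each array the deviation from its group mean was averaged over the 8 genes that peak around the end of the light phase and, separately, over Clock and Npas2. The difference of these means ran from -0.34 in DN-MCU adult 1 to 0.33 in DN-MCU adult 3 in adults and from -0.25 to 0.27 in neonates. With Arntl, Nfil3 and Cry1 added to Clock and Npas2 it ran from -0.33 in WT adult 1 to 0.23 in DN-MCU adult 2 among adults. Among neonates it then ran from -0.30 in DN-MCU neonate 3 to 0.22 in DN-MCU neonate 2. For DN-MCU adult 3 the value with these genes added was 0.02. DN-MCU adult 1 was at -0.25, so WT adult 1 and DN-MCU adult 1 were below 0 and the other adults above it. With Clock and Npas2 alone these 2 arrays were at 0.002 and -0.34. Arntl, among the added genes, deviated by 0.99 and 0.89 on them. The relation of this division to the hour of collection was not tested.

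In adults, the deviations did not follow this simplified textbook order for several genes. By their brightest probe sets Clock, Per2, Per3 and Nr1d2 deviated with the same sign on all 6 adult arrays, low on WT adult 1 and DN-MCU adult 3 and above their group means on the other 4. Those 2 arrays also had the lowest adult upper quartiles of all signals (at most 7.05, against 7.16 to 7.25) and the highest medians (3.46 and 3.45, against 3.41 to 3.42), and the part of this in the pattern was not tested. Nr1d1 and Bhlhe40 deviated the opposite way to those 4 genes on all 6 arrays. Not every other kept probe set of the 4 genes repeated the pattern. On DN-MCU adult 3, Per3 1442243_at, 1458176_at and 1441445_at lay above their group means, at 6.35, 6.38 and 4.97 against 5.89, 6.28 and 3.77. Per2 1457350_at lay just below its group mean on WT adult 3, at 6.50 against 6.52. In DN-MCU adult 3 Clock was at -1.58, Nr1d2 at -1.45 and Per3 at -0.92 relative to the group, while Nr1d1 was at 1.17. In WT adult 1 the same genes were at -0.40, -0.64, -0.95 and 0.77. Nr1d1 and Nr1d2, which share their phase in the textbook order, were thus of opposite sign on 6 of 6 adult arrays, and Clock and Nr1d2, which do not, were of the same sign on 6 of 6. Signs within a group of 3 are not independent because deviations sum to 0, and these pairs were singled out after their values were seen. Npas2, Dbp, Ciart and Nfil3 also shared signs on all 6 adult arrays, although Npas2 and Nfil3 belong to the other phase from Dbp and Ciart. The signs of Nr1d1 rest on a single dim probe set of unknown target, at 4.20 to 5.98 in adults. Those of Npas2 rest on adult signals of 3.38 to 4.91, close to background.

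**Figure D5:**
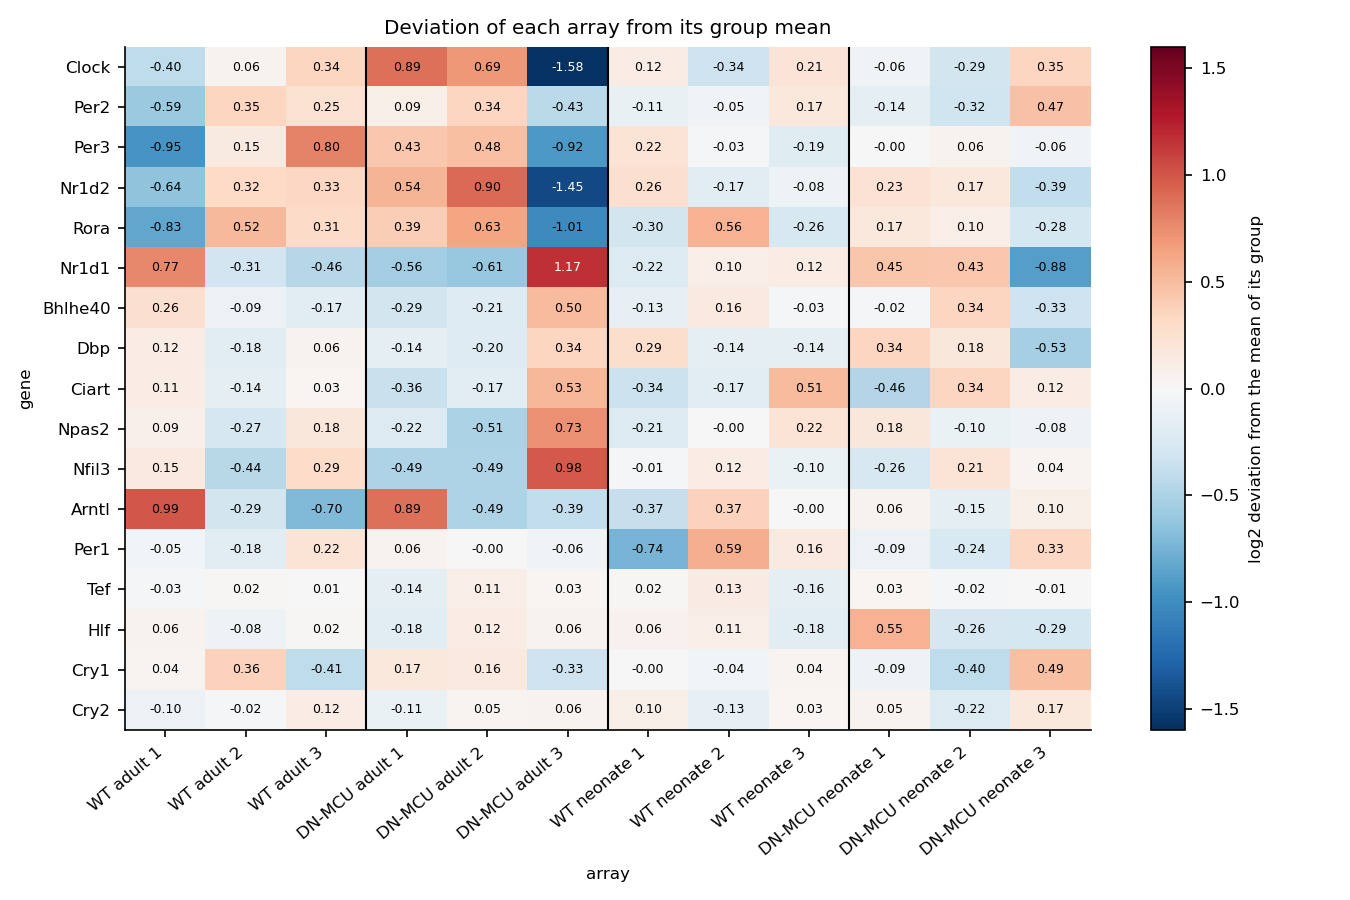
Log2 deviation of each array (columns, grouped by the 4 groups) from the mean of its group for 17 clock genes (rows, each by its brightest probe set). Red is above and blue below, and the value is printed in each cell. WT adult 1 and DN-MCU adult 3 share low Clock, Per2, Per3, Nr1d2 and Rora with high Nr1d1 and Bhlhe40, and Arntl is high on WT adult 1 (0.99) and DN-MCU adult 1 (0.89).

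Arntl followed another division of the adult arrays. It was 4.60 in WT adult 1 and 4.26 in DN-MCU adult 1, and 3.31, 2.91, 2.88 and 2.98 in WT adults 2 and 3 and DN-MCU adults 2 and 3. These are the adults whose sample names carry the lower numbers, and the other 4 carry higher ones. What the numbers stand for is not known here, and the division was singled out after its values were seen. The genes in step with Arntl in the textbook order did not separate these adults: Npas2 was 3.73 and 3.96 against 3.38 to 4.91, and Nfil3 6.31 and 6.51 against 5.72 to 7.98. Nor did Dbp, whose values overlapped. Tef, placed in the other phase from Arntl, deviated opposite to it on 6 of 6 adult arrays. It was below its group mean on WT adult 1 (-0.03) and DN-MCU adult 1 (-0.14) and above it on the other adults. In WT adults Tef spanned only 10.69 to 10.73. On neonatal arrays Tef and Arntl shared signs on 4 of 6. This pair too was singled out after its values were seen, and its relation to the hour of collection was not tested. With the 2 lower-numbered adults left out, 0 of the 10 genes passed for genotype in adults in limma and 8 passed for age.

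Neonatal arrays showed a different arrangement. Dbp and Nr1d2 deviated with the same sign on 6 of 6 neonatal arrays, Per2 and Cry1 did so too, and Per1 was opposite to both Dbp and Nr1d2 on 6 of 6. In DN-MCU neonate 3 Dbp was at -0.53, Nr1d1 at -0.88 and Nr1d2 at -0.39 relative to its group, while Per1 was at 0.33, Per2 at 0.47 and Cry1 at 0.49. On the signal scale its Dbp was 8.28 against 9.15 and 8.99 in the other DN-MCU neonates, and its Per2 was 5.70 against 5.09 and 4.91. WT neonate 1 went the other way for Dbp (0.29) and Per1 (-0.74). These pairs too were singled out after their values were seen, and their relation to the hour of collection was not tested.

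The size of these deviations was set against that of all probe sets. Among adults, the median SD of the 10 genes was 0.31 for WT and 0.56 for DN-MCU, against 0.23 and 0.40 over all probe sets tested. Among neonates it was 0.22 for WT and 0.33 for DN-MCU, against 0.13 and 0.14. The median of the 10 genes had a larger SD than 62.5%, 65.3%, 73.4% and 87.4% of probe sets in these groups, in that order. Above the 90% mark were Nr1d1 and Per3 in WT adults, Clock and Nr1d2 in DN-MCU adults, Per1 and Ciart in WT neonates, and Nr1d1, Dbp, Ciart and Per2 in DN-MCU neonates. Tef stayed low, with a smaller SD than most probe sets in 3 groups (2.4%, 12.4% and 6.0% of probe sets were below it in WT adults, DN-MCU adults and DN-MCU neonates). With 3 arrays a group, each SD is imprecise.

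Genes whose deviations were most like those of Dbp over the 12 arrays were named by rank of Pearson correlation over deviations from the group means, as a description across genes that share the same arrays. The highest were Actr5 (0.96), Lysmd1 (0.95), Lpcat1 (0.94), Arrdc1 (0.93) and Htra1 (0.93). The lowest were Medag (-0.95), Hipk2 (-0.95), Dlst (-0.93), Dsp (-0.92) and Mndal (-0.92). The 10 genes themselves were left out of this ranking, and none of the other clock genes listed was among those named. Among the 10 genes the closest to Dbp was Nr1d1 (0.73) and the farthest Per2 (-0.77), and Tef was at 0.11.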

How the data were processed

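Total RNA (500 ng a sample) from whole hearts was labelled for Affymetrix 3′ arrays, per the labels' protocols. The authors deposited a single table of log2 values, normalized before deposit by a method that the sources used here do not name. The log2 scale was read from the range of the values. Gene symbols came from the platform annotation, and 34754 probe sets matched the reference gene table with 0 symbols changed.

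After removal of 64 control probe sets, 24176 passed the filter. The 4 group means were estimated over 12 arrays in limma 3.58.1 (R 4.3.3), with Benjamini-Hochberg adjustment over all probe sets kept. Each SE and interval therefore reflects scatter pooled over all 4 groups, and not only that of the groups compared. With the adults fitted alone, which leaves fewer arrays, the adult genotype calls of Hlf, Dgat2, Cdkn1a, Mt2 and Per3 1441445_at were lost. Their limma adjusted p then ran from 0.0668 to 0.298. The replicates are labelled as biological, and 3 a group limits precision. The procedure was tested on simulated data with the same scatter in all 4 groups. That test cannot show how the fit behaves where adults scatter more than neonates, as here.

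The members, lists, comparisons and naming rule (every member, listed genes that passed, a set of core clock genes, and the 5 genes most and the 5 least like Dbp) were chosen with earlier results of these data known. Same-numbered neonates had deviations correlated at 0.133, 0.223 and 0.283, so their replicate numbers were used as a block in an alternative fit. This pairing was inferred from these weak correlations in the same data, and the main fit used no block. Adults, at -0.381, 0.410 and -0.428, were not paired. Alternatives were other normalizations, filters, weights, blocks, probe set choices and arrays left out.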

Additional observations from a re-analysis of the deposited data

How the results depend on the processing

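The counts of clock genes called for age (7 or 8) and for genotype in adults and in neonates (0 each) stayed on the same side under every alternative that was run. The 7 came from the stricter filter, which tested 8 of the 10 genes. With the replicate number as a block within each age or for neonates only, 8 genes were called for age and 0 for genotype at either age. For the difference of the DN-MCU effect between ages the count was 1 in place of 0, for Tef, without the filter, with array weights, and with WT adult 1 and DN-MCU adult 3 left out together, an alternative chosen after seeing the data. The phase values and spreads of every array and group moved by less than their SD under quantile normalization and median subtraction.

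Genotype differences that turned sign were all uncalled. In adults Clock was at 0.39 with array weights, 0.14 with its probe sets averaged and 0.42 without WT adult 1 and DN-MCU adult 3. Nr1d1 was at -0.13 with array weights and -0.11 without that pair, and Per2 at 0.051 with probe sets averaged. Tef in neonates was at -0.21 with probe sets averaged. The difference of effects for Clock was 0.011 with quantile normalization, 0.65 with array weights, 0.17 with probe sets averaged and 0.55 without that pair. Leaving out single arrays gave adult ranges of -0.61 to 0.62 for Clock, -0.15 to 0.048 for Per1, -0.44 to 0.069 for Per2, -0.49 to 0.48 for Nr1d1 and -1.10 to 0.078 for Nr1d2. In neonates it gave -0.31 to 0.012 for Clock, -0.29 to 0.38 for Per1, -0.014 to 0.38 for Per2 and -0.30 to 0.0072 for Nr1d2. For the difference of effects it gave -0.48 to 0.75 for Clock, -0.020 to 0.60 for Npas2, -0.44 to 0.22 for Per1 and -0.91 to 0.27 for Nr1d2. The cause was not tested. Hlf in adults also missed the threshold with the block within each age (adjusted p = 0.0549) and with the higher-numbered adults only (0.084). Adult numbers were not taken to pair arrays. Some arrays lie at or near background for Nr1d1, for Npas2 and Arntl in adults, for Ciart and the dimmer Per2, Per3 and Tef probe sets in neonates, and for Per3 1441445_at in DN-MCU adults, which limits their precision.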
